A study of Homo sapiens with 4 samples.

Results

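Class I peptide loading and trimming genes are the 9 genes TAP1, TAP2, TAPBP, TAPBPL, ERAP1, ERAP2, PDIA3, CALR and CANX, taken by symbol from the 46427 genes of the deposited count table. All 9 were found there, and all 9 were among the 17781 genes that passed the filter on low counts. They were followed in the gastric cancer cell line SNU638, an established human line, in 2 control libraries (genotype Control) and 2 libraries with YTHDF1 overexpression. YTHDF1 is a cytosolic protein that binds N6-methyladenosine in messenger RNA. All 4 cultures went without serum for 24 h and then received IFN‐γ at 10 ng/ml, for 8 h according to the sample labels and for 24 h according to the figure legends. No culture went without IFN‐γ, so these libraries hold no measure of induction, only levels under IFN‐γ. The methods describe plasmid transfection, and the sources name no promoter for the YTHDF1 construct and do not say whether the cells were a clone. Each vector has a replicate 1 and a replicate 2, called biological replicates, and nothing further says what the number stands for.

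These genes carry out the last steps by which a cell shows peptides on HLA class I molecules. Peptides cut by the proteasome in the cytosol are pumped into the endoplasmic reticulum (ER) by a heterodimer of TAP1 and TAP2, are shortened at their N termini by the aminopeptidases ERAP1 and ERAP2, and are fitted to the class I heavy chain inside a loading complex. In that complex TAPBP (tapasin) holds the heavy chain next to the transporter and exchanges weak peptides for strong ones, with PDIA3 (ERp57) bound to tapasin through a disulfide and CALR (calreticulin) bound to the sugar of the heavy chain. CANX (calnexin) is the membrane-bound lectin chaperone that takes up the new heavy chain earlier, and TAPBPL (TAPBPR) is a tapasin relative that edits peptides outside the complex. IFN‐γ acts in part through the transcription factor IRF1, and TAP1, TAP2 and TAPBP are well-known IFN‐γ-responsive genes, whereas PDIA3, CALR and CANX serve the folding of most glycoproteins and are abundant in unstimulated cells too.

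TAP1 (NCBI Gene ID 6890, chr6:32845209-32853704), TAP2 (6891, chr6:32821831-32838739) and TAPBP (6892, chr6:33299694-33314078) lie in the HLA region of chromosome 6. ERAP1 (51752, chr5:96760813-96935854) and ERAP2 (64167, chr5:96875984-96919716) are neighbours on chromosome 5, where CANX (821, chr5:179678656-179731641) also lies. TAPBPL (55080) is at chr12:6451649-6472006, PDIA3 (2923) at chr15:43746438-43773278 and CALR (811) at chr19:12938609-12944489. These positions are from RefSeq on GRCh38.p14, and the submitters' processing notes name GRCh38.

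The promoter windows of RefSeq, which run from 250 bases before to 50 bases after an annotated start, were read for 8 of the 9 genes (PDIA3 had no entry). Their letters are shown because the genes of the transporter, the tapasin and the aminopeptidases share a short sequence there that CALR does not have. Capitals mark GAAA, any 2 bases and GAAA on either strand, the core of the element bound by interferon regulatory factors, in the first 5 windows, and CCAAT on either strand in the window of CALR.
TAP1, chr6:32853655-32853954, minus strand: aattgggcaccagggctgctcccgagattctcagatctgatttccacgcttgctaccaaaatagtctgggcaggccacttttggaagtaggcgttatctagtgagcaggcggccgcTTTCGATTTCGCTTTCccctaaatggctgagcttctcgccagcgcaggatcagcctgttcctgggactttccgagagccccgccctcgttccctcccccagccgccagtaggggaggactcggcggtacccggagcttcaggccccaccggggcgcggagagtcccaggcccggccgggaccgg
TAP2, chr6:32838690-32838989, minus strand: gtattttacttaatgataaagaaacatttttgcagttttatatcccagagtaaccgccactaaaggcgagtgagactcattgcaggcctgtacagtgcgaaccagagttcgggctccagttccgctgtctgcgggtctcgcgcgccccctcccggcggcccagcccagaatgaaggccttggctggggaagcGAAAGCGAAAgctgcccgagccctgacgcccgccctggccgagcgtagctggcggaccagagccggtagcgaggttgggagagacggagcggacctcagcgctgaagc
TAPBP, chr6:33314029-33314328, minus strand: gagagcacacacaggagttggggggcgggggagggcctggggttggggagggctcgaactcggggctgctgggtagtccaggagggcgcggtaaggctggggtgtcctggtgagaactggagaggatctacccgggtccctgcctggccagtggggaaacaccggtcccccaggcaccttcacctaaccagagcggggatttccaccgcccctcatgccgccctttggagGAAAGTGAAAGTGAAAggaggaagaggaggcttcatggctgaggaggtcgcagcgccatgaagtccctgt
ERAP1, chr5:96807896-96808195, minus strand: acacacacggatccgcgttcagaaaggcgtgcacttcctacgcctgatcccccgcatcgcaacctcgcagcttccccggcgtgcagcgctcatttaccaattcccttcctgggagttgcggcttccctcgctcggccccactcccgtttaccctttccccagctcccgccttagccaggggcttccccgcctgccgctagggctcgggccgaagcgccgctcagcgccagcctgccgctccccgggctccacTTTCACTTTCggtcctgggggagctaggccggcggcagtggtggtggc
ERAP2, chr5:96876250-96876549, plus strand: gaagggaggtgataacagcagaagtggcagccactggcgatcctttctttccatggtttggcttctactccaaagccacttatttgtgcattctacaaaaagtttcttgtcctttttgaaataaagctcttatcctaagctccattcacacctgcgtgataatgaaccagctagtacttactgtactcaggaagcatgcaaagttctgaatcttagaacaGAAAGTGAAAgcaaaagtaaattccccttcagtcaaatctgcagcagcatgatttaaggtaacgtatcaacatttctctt
CALR, chr19:12938359-12938658, plus strand: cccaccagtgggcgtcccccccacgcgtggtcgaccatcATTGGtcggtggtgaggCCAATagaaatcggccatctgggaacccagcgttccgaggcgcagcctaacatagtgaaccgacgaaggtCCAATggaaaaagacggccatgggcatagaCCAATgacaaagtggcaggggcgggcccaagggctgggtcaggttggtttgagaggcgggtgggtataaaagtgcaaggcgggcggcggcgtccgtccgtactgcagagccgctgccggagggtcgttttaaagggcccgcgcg

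This core was present in a window of 5 of the 8 genes, namely TAP1, TAP2, TAPBP, ERAP1 and ERAP2, and in 4.38% of the 27305 genes with a window. TAP1 and TAPBP each held it at 2 overlapping positions. It lay at −134 to −119 of the TAP1 start on the minus strand of the gene, at −58 to −49 in TAP2, at −20 to −5 in TAPBP, at −30 to −21 in the second window of ERAP2, and just after the start of ERAP1, at 3 to 12. TTCNNNGAA, the letters of the gamma-activated sequence, was found in 1 of the 8 genes, in the second TAP1 window, against 9.38% of all genes. CCAAT was found in 4 of the 8 genes, against 39.7% of all genes, with 4 positions in CALR and 1 in each of the 4 CANX windows, where the match of the 3 overlapping windows is the same site. Neither TAPBPL window held any of the 3 motifs. Matches of this kind describe letters and do not show that a factor was bound.

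**Figure D1:**
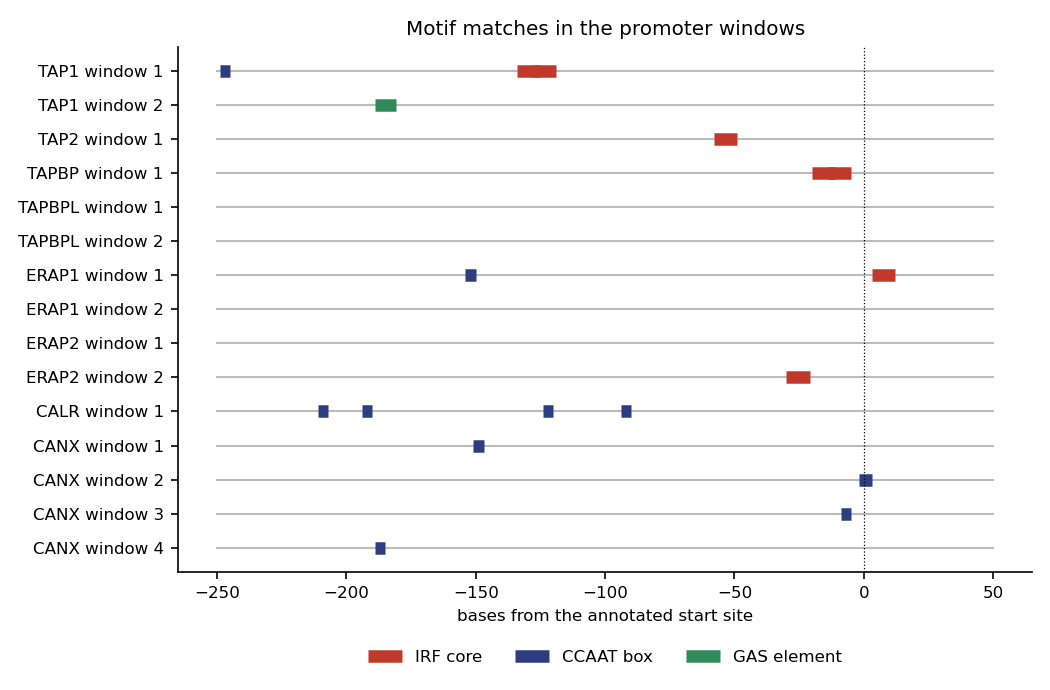
Positions of 3 motifs in the RefSeq promoter windows of 8 genes, in bases from the annotated start site (dotted line); each grey line is a window and each block a match on either strand. The interferon regulatory factor core is in windows of TAP1, TAP2, TAPBP, ERAP1 and ERAP2, while CALR holds 4 CCAAT boxes and no such core.

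Libraries were deep, with total counts from 57398137 to 60864942, and the 9 genes together took between 0.392% and 0.419% of the counts. YTHDF1 itself had 82.2 and 80.3 CPM (counts scaled per 1e6 of the TMM-adjusted library size) in the control libraries and 16490 and 2628 CPM in YTHDF1 replicates 1 and 2, so the overexpressed libraries differed 6.28-fold in it. Its log2 fold change of 6.88 had an adjusted p of 1 in edgeR's quasi-likelihood test and of 5.54e-14 in the DESeq2 Wald test. Epithelial markers were present, with 6 of 6 tested (EPCAM, KRT8, KRT18, KRT19, CDH1, CLDN4). Their summed level was 4114 and 3917 CPM in the replicate 1 libraries and 6406 and 6720 CPM in the replicate 2 libraries. In the replicate 2 libraries 3 of the 6 were higher and 3 lower by the test used below, with CLDN4 at 55.0 and 56.6 CPM in the replicate 1 libraries and 0.935 and 0.994 CPM in the replicate 2 libraries. Of the other cell types, 2 of 5 leukocyte, 2 of 5 fibroblast and 3 of 4 endothelial markers passed the filter. Summed over those tested, they reached at most 1.01, 11.5 and 0.934 CPM. Most of the fibroblast sum was COL1A1. It had 10.75 and 10.85 CPM in control and YTHDF1 replicate 1, and 5.70 and 5.81 CPM in control and YTHDF1 replicate 2. COL1A2 had 0 counts in all 4 libraries. In bulk RNA, fewer cells with a transcript and less of it per cell cannot be told apart.

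Levels per length spanned a wide range among the 9 genes, with CALR at the top and ERAP2 at the bottom. They are given as CPM per kilobase of all exons annotated for the gene in GENCODE release 29. CALR had 281 to 333 CPM per kilobase over the 4 libraries, above 99.6% of the genes tested. TAP1 came next at 161 to 184 CPM per kilobase, and PDIA3 followed at 140 to 157 CPM per kilobase. CANX had 136 to 167 CPM per kilobase, a range that overlapped those of PDIA3 and TAP1. The transporter subunit TAP1 thus lay below CALR, above PDIA3 and in overlap with CANX per length in these IFN‐γ-treated cells. TAP2, its partner, stood at 59.0 to 71.6 CPM per kilobase, and TAPBP at 58.6 to 68.4 CPM per kilobase, and these neighbours overlapped. The trimming enzymes were much lower, with ERAP1 at 9.51 to 12.4 and ERAP2 at 3.36 to 3.67 CPM per kilobase. TAPBPL, at 3.11 to 7.50 CPM per kilobase, overlapped ERAP2. With the longest coding transcript as the length, PDIA3 and CANX changed places, as did TAP2 and TAPBP, and the other ranks were as before.

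**Figure D2:**
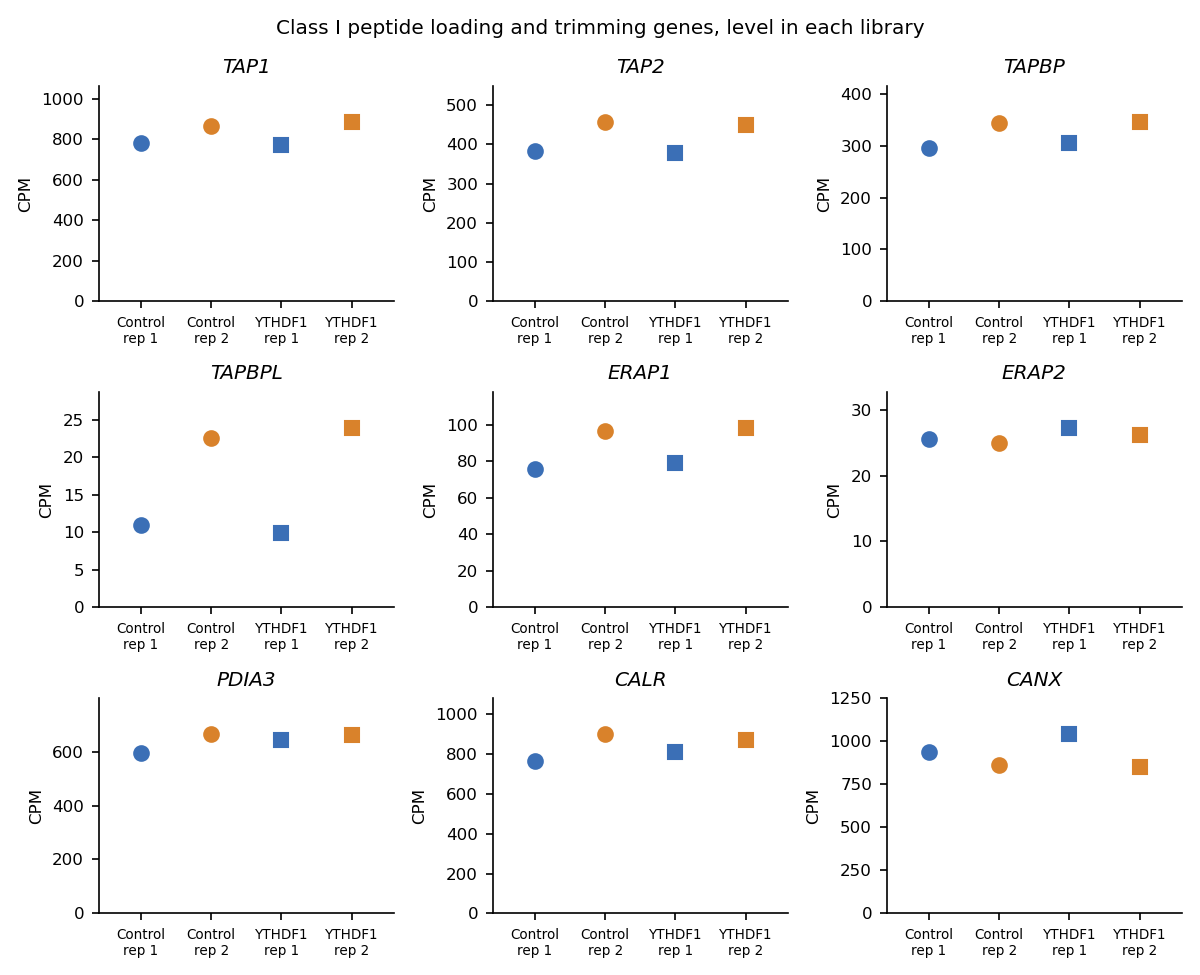
Level of each of the 9 genes in the 4 libraries, in CPM on an axis that starts at 0; circles are control and squares YTHDF1, blue is replicate 1 and orange replicate 2, and each symbol is 1 library. TAPBPL sits at 10.97 and 9.90 CPM in replicate 1 and at 22.5 and 23.9 CPM in replicate 2, and ERAP2 is the 1 gene with both YTHDF1 symbols above both control symbols.

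Whether YTHDF1 overexpression changes gene expression under IFN‐γ was the question of the design. None of the 9 genes was called between YTHDF1‐overexpressed and control cells in a fit without the replicate number. That fit did not call YTHDF1 itself either, so the lack of calls does not show that the genes were unchanged. By the quasi-likelihood test, with p adjusted over the 17781 genes by the Benjamini-Hochberg method, 0 of the 9 had an adjusted p under 0.05, where the share of all genes was 0%. At an unadjusted p under 0.05 there were also 0 of the 9, against 24 genes or 0.135% of all. When a size of 0.5 or more on the log2 scale was asked for as well, 0.0225% of all genes were higher and 0.0787% lower, or 0.101% in all, and again 0 of the 9. The DESeq2 Wald test called 1 gene higher and 2 lower at an adjusted p under 0.05 and limma-voom called 0, with 0 of the 9 in either. The 9 log2 fold changes ran from −0.023 to 0.082, with 8 above 0 and a median of 0.023, beside a median of 0.0047 over all genes tested. The libraries did not overlap between the vectors in 1 of the 9 genes, ERAP2, which was higher, against 11.5% of all genes (5.65% higher and 5.83% lower).

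TAP1 had 783 and 865.5 CPM in control replicates 1 and 2 and 773 and 886 CPM in YTHDF1 replicates 1 and 2. The lowest and the highest library were thus both YTHDF1 libraries, and the groups overlapped. Its log2 fold change was 0.0088 (standard error 0.13, 95% interval −0.36 to 0.38, adjusted p = 1 from edgeR). TAP2 had 382 and 457 CPM in control and 377 and 449 CPM with YTHDF1, a log2 fold change of −0.023 (95% interval −0.48 to 0.43). It was the 1 gene of the 9 with a value below 0. TAPBP had 296.5 and 344 CPM in control and 305 and 346 CPM with YTHDF1, and its log2 fold change was 0.023 (95% interval −0.36 to 0.41). For these IFN‐γ-responsive genes the intervals together reach from −0.48 to 0.43 on the log2 scale, and these intervals hold for a fit without the replicate number, so that the difference between the numbers is part of their error.

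TAPBPL had the widest interval of the 9, with a log2 fold change of 0.013 and a 95% interval from −1.77 to 1.79. It had 10.97 and 22.5 CPM in control and 9.90 and 23.9 CPM with YTHDF1, so the libraries lay together by replicate number and not by vector. The N-terminal trimming enzyme ERAP1 had 75.5 and 96.6 CPM in control and 79.0 and 98.3 CPM with YTHDF1, a log2 fold change of 0.043 (95% interval −0.51 to 0.59). ERAP2, which prefers other N-terminal residues than ERAP1, had 25.6 and 24.9 CPM in control and 27.3 and 26.2 CPM with YTHDF1. Both YTHDF1 libraries were above both control libraries, but the log2 fold change of 0.082 had a 95% interval from −0.25 to 0.41 and an unadjusted p of 0.521 in the quasi-likelihood test.

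Among the chaperones, PDIA3 had 595 and 666 CPM in control and 644 and 661 CPM with YTHDF1, with a log2 fold change of 0.0495 (95% interval −0.26 to 0.36). CALR had 764 and 902 CPM in control and 811 and 874 CPM with YTHDF1, with a log2 fold change of 0.016 (95% interval −0.37 to 0.40). CANX had 935 and 861.5 CPM in control and 1043 and 848 CPM with YTHDF1, with a log2 fold change of 0.073 (95% interval −0.36 to 0.51). In each of these genes the YTHDF1 libraries overlapped the control libraries.

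The difference within a replicate number sets aside the difference between the numbers, but it compares only 1 library with 1, so it carries no replicate error. The 95% intervals given with it cover counting error alone, and reads were not tied to single molecules by identifiers. TAP1 differed by −0.020 on the log2 scale within replicate 1 (−0.038 to −0.0010) and by 0.034 within replicate 2 (0.016 to 0.052). TAP2 was lower with YTHDF1 by small amounts within both numbers, at −0.019 (−0.046 to 0.0075) and −0.026 (−0.050 to −0.0011). TAPBP differed by 0.040 and 0.0075. These genes of the transporter and its bridge thus stayed within 0.04 of 0 on the log2 scale, with signs that differed between the numbers for TAP1. TAPBPL differed by −0.147 (−0.308 to 0.0139) within replicate 1 and by 0.085 (−0.024 to 0.194) within replicate 2. ERAP1 was higher with YTHDF1 by 0.0645 and 0.026, and ERAP2 by 0.091 and 0.0725, in the same order. The 3 chaperones were higher with YTHDF1 within replicate 1, by 0.113 for PDIA3, 0.087 for CALR and 0.157 for CANX, with counting intervals above 0. Within replicate 2 PDIA3 was at −0.0098, with a counting interval that held 0, while CALR at −0.047 (−0.064 to −0.029) and CANX at −0.023 (−0.041 to −0.0055) had counting intervals below 0. Whether these differences depend on the number cannot be tested, since each number holds 1 library of each vector. YTHDF1 was higher in YTHDF1 replicate 1 than in replicate 2, as given above, and its part in these values was not tested.

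**Figure D3:**
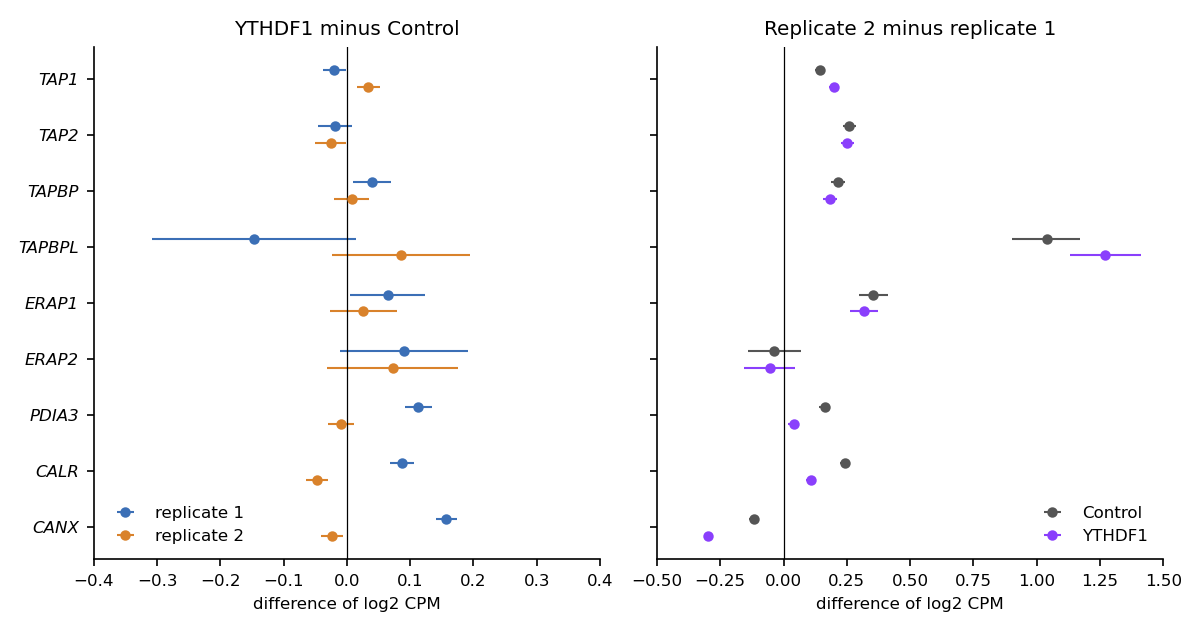
Differences of log2 CPM between single libraries for the 9 genes, with bars for the 95% interval of counting error; left, YTHDF1 minus control within replicate 1 (blue) and replicate 2 (orange), and right, replicate 2 minus replicate 1 in control (grey) and YTHDF1 (violet). The panels have different scales, with all left values between −0.147 and 0.157 and the right ones reaching 1.27 for TAPBPL.

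The replicate number separated the libraries far more than the vector did. By the quasi-likelihood test of the replicate 2 against the replicate 1 libraries, 6 of the 9 genes were higher and 1 was lower at an adjusted p under 0.05. Of all genes tested, 23.6% were higher and 29.1% lower, 52.6% in all, so a call in this comparison was common. The transporter subunits, both tapasin family members, ERAP1 and CALR rose, CANX fell, and ERAP2 and PDIA3 did not pass. The median log2 fold change of the 9 was 0.17, beside −0.012 over all genes tested. The libraries of the 2 numbers did not overlap in 8 of the 9 genes, 7 higher and 1 lower, against 77.2% of all genes (36.8% higher and 40.4% lower). At an unadjusted p under 0.05 and a log2 fold change of at least 0.5, 1 of the 9 was higher, TAPBPL, against 10.9% of all genes higher, 17% lower and 27.9% in all. The p-values measure the spread between these libraries, and what distinguishes the numbers is not given in the sources used here. The levels of the epithelial markers above moved with the number too, and their part in these values was not tested. With control replicate 2 or YTHDF1 replicate 2 left out, 4 of the 9 genes were called in place of 7. TAP1, CALR and CANX then lost the call, with adjusted p of 0.0546, 0.123 and 0.0941 without the control library and 0.116, 0.0747 and 0.137 without the YTHDF1 library. With YTHDF1 replicate 1 left out, PDIA3 was called too, with an adjusted p of 0.0112 and 8 genes in all.

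TAPBPL differed most between the numbers. It had 652 and 583 counts in control and YTHDF1 replicate 1 against 1278 and 1443 in replicate 2, and was 2.23-fold higher in replicate 2 (log2 fold change 1.15, standard error 0.082, quasi-likelihood adjusted p = 5.74e-06). The log2 fold change was above that of 96.4% of the genes tested, and its size, in either direction, was above that of 85.3%. The difference was 1.04 within control and 1.27 within YTHDF1. TAPBP, the tapasin of the loading complex, was 1.15-fold higher (log2 fold change 0.20, standard error 0.034, adjusted p = 0.00114). The ratio of TAPBP to TAPBPL counts, which does not depend on library scaling, was 27.0 and 30.8 in the replicate 1 libraries of control and YTHDF1 and 15.3 and 14.5 in the replicate 2 libraries. The ratio of these messenger RNAs thus differed between the numbers in both vectors, and the proteins were not measured in these libraries. On the annotation, the spans of TAPBPL and VAMP1, introns included, overlap by 8441 bases. VAMP1 had 345 and 318 counts in the replicate 1 libraries and 268 and 337 in the replicate 2 libraries, so its counts did not move with those of TAPBPL.

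The transporter subunits moved by smaller amounts. TAP2 was 1.19-fold higher in the replicate 2 libraries (log2 fold change 0.26, standard error 0.032, quasi-likelihood adjusted p = 0.000199), with 0.26 within control and 0.25 within YTHDF1. TAP1 was 1.13-fold higher (log2 fold change 0.17, standard error 0.044, adjusted p = 0.0108), with 0.14 and 0.20 within the vectors. The ratio of TAP1 to TAP2 counts was 2.05 and 2.05 in the replicate 1 libraries and 1.89 and 1.97 in the replicate 2 libraries. The span of the antisense RNA PSMB8-AS1, introns included, overlaps that of TAP1 by 1292 bases. PSMB8-AS1 had 568 and 565 counts in the replicate 1 libraries and 990 and 1098 in the replicate 2 libraries. TAP1 had 45497 to 53503 counts. The libraries were stranded, but the strand setting of the counting is not given in the sources used here.

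ERAP1 was 1.26-fold higher in the replicate 2 libraries (log2 fold change 0.34, standard error 0.044, quasi-likelihood adjusted p = 0.00025), whereas ERAP2 had a log2 fold change of −0.046 (95% interval −0.19 to 0.10, adjusted p = 0.577). The ratio of ERAP1 to ERAP2 counts was 2.95 and 2.90 in the replicate 1 libraries and 3.87 and 3.75 in the replicate 2 libraries. ERAP1 thus rose while ERAP2 did not pass, and the difference between these neighbours was not tested. Both have an interferon regulatory factor core in a promoter window. On the annotation ERAP2 lies wholly within the span of ERAP1, whose longest form runs past it, so their counts are uncertain where the counting could split reads. CAST also overlaps the span of ERAP1, by 13871 bases. It had 8622 and 8667 counts in the replicate 1 libraries and 8829 and 9564 in the replicate 2 libraries.

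The lectin chaperones went opposite ways. CALR was 1.13-fold higher in the replicate 2 libraries (log2 fold change 0.17, standard error 0.0495, quasi-likelihood adjusted p = 0.0169). CANX fell by 0.21 on the log2 scale (standard error 0.059, adjusted p = 0.0152 in the same test). The differences within control and within YTHDF1 were 0.24 and 0.11 for CALR and −0.12 and −0.30 for CANX. The ratio of CALR to CANX counts was 0.817 and 0.778 in the replicate 1 libraries and 1.05 and 1.03 in the replicate 2 libraries. CALR thus took a larger share relative to CANX in the replicate 2 libraries of both vectors. Without the filter on low counts the adjusted p of CANX was 0.0569. PDIA3, the oxidoreductase that serves both chaperones, had a log2 fold change of 0.0997 (95% interval −0.012 to 0.21, quasi-likelihood adjusted p = 0.12). Its differences within control and within YTHDF1 were 0.16 and 0.039.

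**Figure D4:**
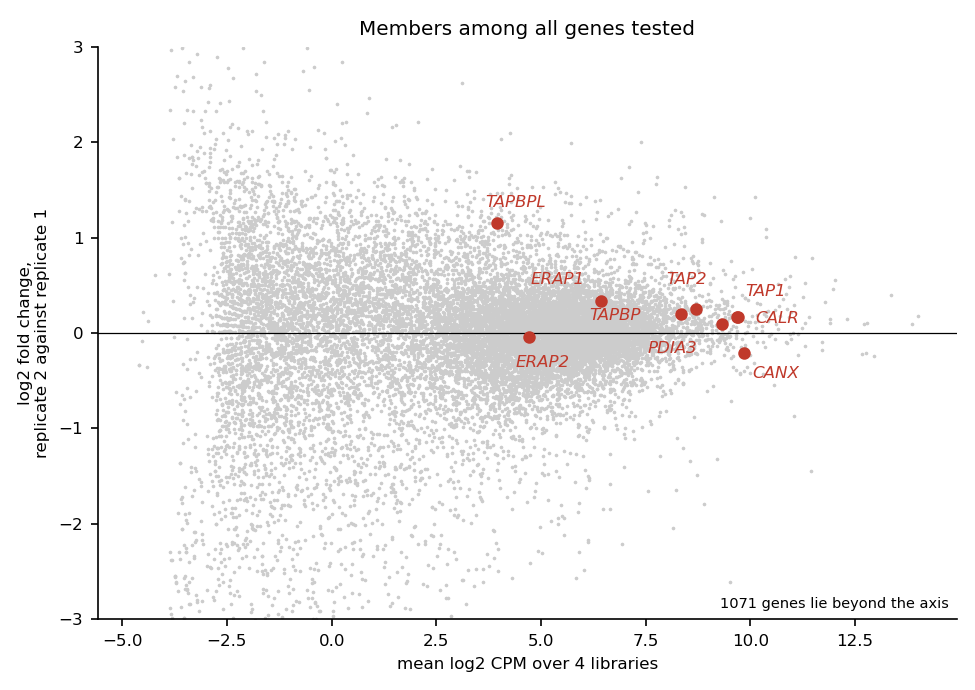
Log2 fold change of replicate 2 against replicate 1 for all 17781 genes tested (grey) against the mean log2 CPM over 4 libraries, with the 9 genes in red; the axis is limited to 3 in either direction, and the number of genes beyond it is printed in the plot. TAPBPL stands at 1.15, the other 8 genes lie between −0.21 and 0.34.

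The remaining genes of the class I pathway was read from a list of 19 genes for heavy chains, B2M, the immunoproteasome and regulators, of which 18 were tested. Between the vectors 0 of the 18 were called, against 0% of all genes, and their median log2 fold change was 0.0035. The pair with the smallest p were the immunoproteasome subunits PSMB10 (log2 fold change −0.033, unadjusted p = 0.702 in the quasi-likelihood test) and PSMB9 (−0.0499, unadjusted p = 0.751). IRF1 and NLRC5, regulators of class I transcription on the same list, were named with their values known, and had log2 fold changes of 0.040 and 0.022. Between the replicate numbers 12 of the 18 were higher and 2 lower in replicate 2 at an adjusted p under 0.05 from the quasi-likelihood test. Of all genes tested, 23.6% were higher and 29.1% lower. The median was 0.25 for the list and −0.012 for all genes tested. The immunoproteasome subunit PSMB8 rose by 1.14 and the heavy chain HLA-F by 0.68, on the log2 scale. IRF1 rose by 0.37 and NLRC5 by 0.12, and NLRC5 lost the call without control replicate 2 (adjusted p = 0.113, quasi-likelihood test) or YTHDF1 replicate 2 (0.159). The heavy chain HLA-C fell by 0.38, although HLA genes resemble each other closely and the counting could split or lose their reads. PSMB9, whose start lies beside that of TAP1, rose by 0.24. The ratio of TAP1 to PSMB9 counts ran from 6.44 to 7.04 over the 4 libraries. That of TAP1 to CALR, a gene on another chromosome, ran from 0.953 to 1.03, so a narrow range was not particular to PSMB9.

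Genes of the cellular surroundings of CALR, CANX and PDIA3 did not share 1 direction. Of 24 listed genes for ER chaperones and folding, 23 were tested and 0 were called between the vectors. In replicate 2, 8 were higher and 8 lower at an adjusted p under 0.05 (median −0.053). For all lists in this paragraph the shares of all genes were 0% between the vectors, and 23.6% higher and 29.1% lower in replicate 2. Among the higher genes MANF and PDIA6 rose by 0.32 each and HYOU1 by 0.19 on the log2 scale. Among the lower ones the ER chaperone HSP90B1 fell by 0.71, the oxidase ERO1A fell by 0.44 and ERP29 fell by 0.21. Of 12 peptidases of the cytosol and other compartments, 0 were called between the vectors, and 6 were higher and 4 lower in replicate 2. LAP3, a cytosolic leucine aminopeptidase, rose by 0.74, NPEPL1 by 0.53 and DPP3 by 0.29, whereas NRDC fell by 0.42, XPNPEP1 fell by 0.21 and ANPEP, under 1 CPM in every library, fell by 2.34. Of 18 genes for the ER translocon and ER degradation, 0 were called between the vectors, and 4 were higher and 3 lower in replicate 2. EDEM1 rose by 0.73, VCP by 0.24 and SSR2 by 0.22, while HERPUD1 fell by 0.46, DERL1 fell by 0.28 and EDEM2 fell by 0.20. Without YTHDF1 replicate 2 the adjusted p of the quasi-likelihood test was 0.0586 for ERP29, 0.0681 for XPNPEP1, 0.0643 for DERL1 and 0.11 for EDEM2, and EDEM2 also lost the call without control replicate 1 (0.0597) or control replicate 2 (0.094). In the promoter windows, the interferon regulatory factor core was found in 7 of 15 genes of the class I list, 1 of 12 peptidase genes, 0 of 22 ER folding genes and 0 of 17 genes for the translocon and degradation. CCAAT was found in 9 of the 15, 5 of the 12, 16 of the 22 and 13 of the 17, in the same order. Over all genes with a window, the core was found in 4.38% and CCAAT in 39.7%.

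**Figure D5:**
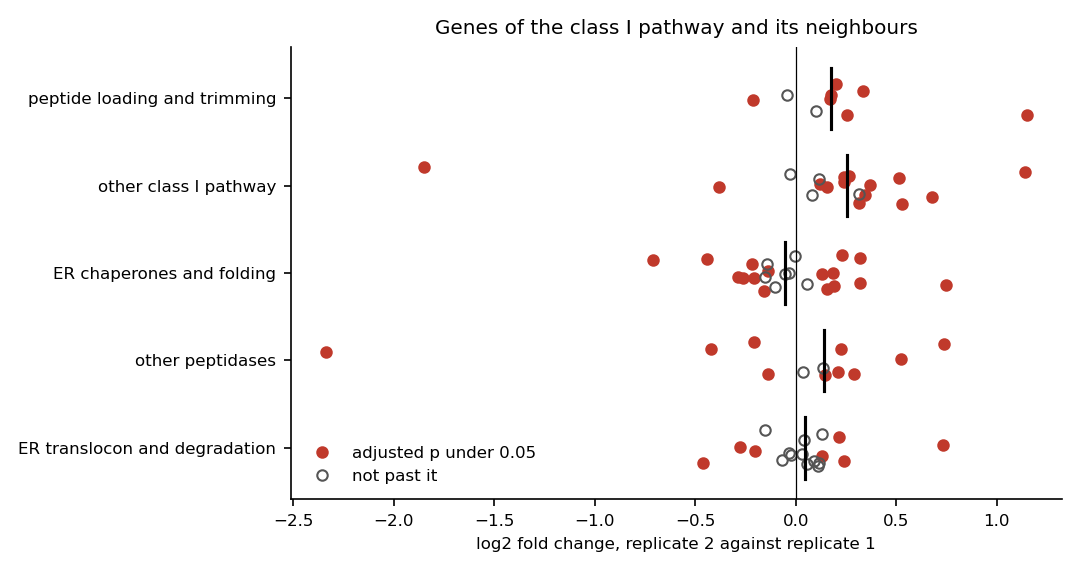
Log2 fold change of replicate 2 against replicate 1 for each tested gene of the 9 peptide loading and trimming genes and of 4 further lists; filled red points passed an adjusted p under 0.05, open points did not, black bars are medians, and the vertical scatter is only for display. The median is 0.17 for the 9 genes, 0.25 for the rest of the class I pathway and −0.053 for ER chaperones and folding.

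The genes most like TAP1 and CALR over the 4 libraries were not others of the 9. Likeness was the Euclidean distance between log2 CPM centred on each gene's mean, among 9991 other genes with a mean of at least 10 CPM. It is a description over 4 libraries, which share their depth and their replicate numbers. For TAP1 the nearest were COMMD4 (distance 0.0079), TUBB2B (0.0092), PSMD8 (0.011), GATAD2A (0.013) and C17orf75 (0.015). TAPBP was the nearest of the other 8 genes, at a distance of 0.054 and rank 270, and TAPBPL the farthest, at 0.988 and rank 9478. For CALR the nearest were AIDA (0.014), DNAJA1 (0.015), CCDC97 (0.019), RCN1 (0.020) and DNAJC15 (0.021). TAPBP was again the nearest member, at rank 194, and CANX stood at rank 6677.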

How the data were processed

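Messenger RNA was measured in 4 libraries, made with a stranded kit from poly(A) RNA. The authors deposited raw counts, with 1 whole number for each gene and library. The submitters' processing notes name Trimmomatic, HISAT2 and GRCh38, and the counting tool, its strand setting and the annotation release are not given in the sources used here.

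The tests were run with edgeR 4.0.16 under R 4.3.3 (filterByExpr, TMM, quasi-likelihood test) over 17781 genes, once for YTHDF1 against control and once for replicate 2 against replicate 1, and p was adjusted by the Benjamini-Hochberg method over all genes. A call is an adjusted p under 0.05. The standard error was obtained by dividing the absolute log2 fold change by the square root of F, and 95% intervals use the test's degrees of freedom. Single-library differences used a prior count of 0.5. DESeq2 1.42.0 and limma 3.58.1 (voom) were alternatives, as were other filters and scalings and each library left out in turn. Total counts of 57398137 to 60864942 bear on counting error, and the spread between libraries enters the tests as well. Replicates are as labelled, and p-values measure the spread between these libraries, which may be technical.

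The members and lists were chosen with earlier results of these data known. All 9 members, YTHDF1, and from each list the genes with the smallest p (at most 3 called per direction between the numbers, and 2 between the vectors) were named, with IRF1 and NLRC5 added. Some genes that this rule names are not reported here. Lengths came from GENCODE release 29. Plots were made in matplotlib 3.10.9 (Python 3.11.15).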

Additional observations from a re-analysis of the deposited data

How the results depend on the processing

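The vector comparison of the 9 genes gave 0 calls at an adjusted p under 0.05 under all alternatives run, and its median log2 fold change stayed between 0.019 and 0.024 except with a library left out, when it ran from −0.081 to 0.13. TAPBPL turned below 0 with limma-voom (−0.017) and with the replicate block (−0.019). Over all genes, at an unadjusted p under 0.05 with a log2 fold change of 0.5 or more in size, 4 were higher and 14 lower. Without the filter on low counts these were 32 and 50, and with the replicate number as a block 58 and 134. At an adjusted p under 0.05 there were 0 and 0, against 1 and 2 with the DESeq2 Wald test and 2 and 8 with the block. The labels give the numbers no meaning. Deviations from the group means correlated at 0.875 across genes between same-numbered libraries, and the block made 0 calls among the 9 genes. YTHDF1 itself had a log2 fold change of 6.34 and an adjusted p of 0.00223 with the block in edgeR.

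Between the numbers, lower genes at the unadjusted threshold went from 3016 to 1987 with at least 10 counts in every library, and EDEM2 had an adjusted p of 0.0519 with DESeq2.

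With 1 library left out, the lone library is assumed to vary like the others, and vector and number are no longer balanced. At the unadjusted threshold the genes called higher and lower then ran from 4 to 49 and from 11 to 55. The log2 fold changes ran from −0.10 to 0.11 for TAP1, from −0.16 to 0.11 for TAP2, from −0.081 to 0.13 for TAPBP, from −0.77 to 0.63 for TAPBPL, from −0.13 to 0.23 for ERAP1, from −0.029 to 0.13 for PDIA3, from −0.099 to 0.14 for CALR and from −0.082 to 0.21 for CANX. For genes of the lists they ran from −0.075 to 0.0092 for PSMB10, from −0.20 to 0.078 for PSMB9, from −0.17 to 0.23 for IRF1, from −0.043 to 0.085 for NLRC5, from −0.045 to 0.36 for TXNDC5, from −0.027 to 0.20 for DNAJC3, from −0.15 to 0.0094 for RNPEP and from −2.04 to 1.15 for ANPEP. Between the numbers the median of the 9 genes ran from 0.18 to 0.22, the genes called among them from 4 to 8, and ERAP2 from −0.090 to 0.0019. The cause of these changes was not tested.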

Other observations

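SSR3 and SSR1, of the signal sequence receptor complex, were the list genes with the smallest p between the vectors. SSR3 had a log2 fold change of 0.14 (standard error 0.082) and SSR1 of 0.11, both with an adjusted p of 1 in the quasi-likelihood test. The median of the translocon and degradation list was 0.082 within replicate 1 and 0.019 within replicate 2. For ER chaperones and folding it was 0.076 within replicate 1 and −0.0099 within replicate 2. TXNDC5, an ER disulfide isomerase, and DNAJC3, a co-chaperone of HSPA5, had the smallest p of that list between the vectors, with log2 fold changes of 0.18 and 0.095. TXNDC5 had 233 and 211 CPM in control and 286 and 215 CPM with YTHDF1. For the peptidases the medians were −0.011 and −0.052, and RNPEP and ANPEP had the smallest p, with log2 fold changes of −0.067 and −0.44. None of these genes was called between the vectors.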
